A study of Mus musculus with 4 samples.

Results

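The comparison described here is that of mouse primary intestinal epithelial cells given interleukin-17A (IL-17A) alone with cells left without treatment. It uses 2 of the 4 expression arrays of the series, the one titled IL-17A and the one titled UN, chosen by their titles. The series measured RNA on 1 array for each of 4 groups: untreated cells, cells given IL-17A at 50 ng/ml, cells given fibroblast growth factor 2 (FGF2) at 5 ng/ml, and cells given both at those doses. Stimulation lasted 6 h, and how long untreated cells were kept in culture is not stated in the labels. All groups came from crypts isolated from mouse intestine and plated on fibronectin in serum-containing medium with insulin. Nor do the labels state the strain, the age, the number of animals, any pooling or a step that removes other cell types. As there was 1 array on each side, there is no replicate spread and no test, and each difference given compares a pair of arrays.

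IL-17A is made by T cells and innate lymphocytes and acts on epithelial and stromal cells. Its receptor, a complex of IL-17RA and IL-17RC, recruits the adaptor Act1 (gene Traf3ip2), which leads through TRAF6 to NF-kB, to the induced co-factor IkB-zeta (Nfkbiz) and to C/EBP factors, and also lengthens the life of cytokine mRNAs. In the gut it is known for neutrophil-attracting chemokines, antimicrobial proteins and the epithelial IgA transporter.

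A gene was represented by its brightest probe set, and signals under 89.8, the median of all signals, were raised to that floor. A fold that starts or ends on the floor is a lower bound and is written as "at least". Of 18193 genes, 12258 exceeded the floor on at least 1 of the 4 arrays and are called measured. On the IL-17A array 46 of them (0.375%) were at least 2-fold higher than on the untreated array and 28 (0.228%) were at least 2-fold lower. The plot of both arrays' signals shows these 74 genes on either side of a narrow diagonal: 11843 genes (96.6%) lay within 1.5-fold, and the median log2 ratio of all measured genes was -0.01. Of all measured genes 45.1% lay above 0 and 52.8% below, and the counts of list members given below are to be read against these shares. The lists were chosen with earlier results of these data known, so a lean of their members is no independent support. Size differed between the directions, since 4-fold was reached by 12 higher genes and by 1 lower gene. The genes just inside the threshold were Duoxa2, Ifitm1 and Lgi2 (2.01- to 2.02-fold higher) and Tm4sf4, Mgam and Slc51a (2.02- to 2.08-fold lower). Just outside it were Dagla, Plau and Ccl2 (1.93- to 1.99-fold higher) and Mrpl33, Upk3bl and Apoc3 (1.94- to 1.998-fold lower).

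**Figure D1:**
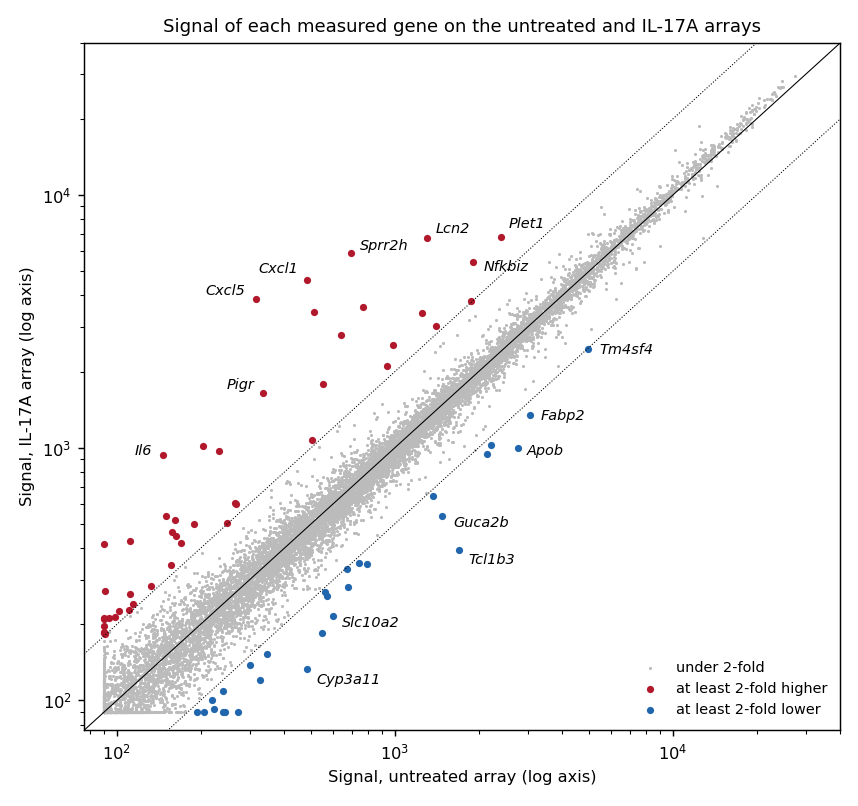
Signal of each of the 12258 measured genes on the untreated array (x axis) and the IL-17A array (y axis), both on log axes, with signals under the floor of 89.8 drawn at the floor. The solid line marks equal signals and the dotted lines 2-fold; 46 genes lie above the upper dotted line and 28 below the lower one.

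An error guide was taken from the layout of the series. The effect of IL-17A can be read a second time from arrays not used above, as IL-17A plus FGF2 against FGF2, and the difference between both readings, if it were all error, gives an SD of the log2 ratio of 0.29 for genes with a mean log2 signal under 8, 0.20 from 8 to 10, 0.13 from 10 to 12 and 0.094 above 12. A true effect of FGF2 on the response is part of this guide and cannot be told apart from error, and the guide is no test. By it, 435 measured genes (3.55%) lay above 0 by more than double the SD and 534 (4.36%) below 0 by more than that. List counts past double the SD are to be read against these shares. Error alone would place some genes past double the SD, so these are not counts of changed genes. Signals raised to the floor entered the guide, which can make it too small for dim genes. All 4 arrays had been scaled to a common mean signal of 500. Their RNA controls were alike, with 3' to 5' signal ratios that rounded to 1.2 on each array for Actb and ran from 0.815 to 0.871 for Gapdh.

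The epithelial label was checked against marker lists. All 24 general epithelial markers on the array exceeded the floor on both arrays, and their summed signal was 224164 untreated and 225392 with IL-17A. Epcam had signals of 16578 and 16949 and the keratin gene Krt8 24796 and 26776. Markers of other cells of the intestinal wall were measured as well. The summed signal of 24 fibroblast markers was 158349 untreated and 163551 with IL-17A, that of 20 endothelial markers 17491 and 16234, and that of 20 glial and neuronal markers 25438 and 25790. The summed signal was 92636 and 94083 for 17 smooth muscle markers and 7573 and 7744 for 20 macrophage markers. Of the macrophage markers 4 were under the floor on all 4 arrays, Itgam and Aif1 among them. The labelled epithelial preparation thus also held RNA of stromal cells, at levels that differed little between the arrays. Which cells held the mRNAs described below cannot be told from these arrays. Of lymphocyte markers, 17 of 21 for T and NK cells and 10 of 12 for B and plasma cells stayed under the floor on all 4 arrays, among them Cd3e, Cd4 and Cd79a. Of 21 markers of stem and transit-amplifying cells, 6 were under the floor on all 4 arrays, Lgr5, Ascl2 and Olfm4 among them. The summed signal of these 21 markers was 43460 untreated and 46361 with IL-17A. In such bulk samples, fewer cells of a type and less RNA per cell cannot be told apart.

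Promoter sequence is shown first for 8 genes at least 2-fold different on the arrays, chosen because their windows hold motifs that are then counted over all promoters. Sequences are from RefSeq on build GRCm38.p6, cover 250 bases before to 50 after the annotated start, and run 5' to 3' on the gene's own strand. A promoter was found for 38 of the 46 higher and 23 of the 28 lower genes. In the first set, 3 cytokine and chemokine genes, capitals mark matches to the consensus sequence of NF-kB (both strands searched; overlapping matches are drawn as one run). Cxcl1 lies at chr5:90890995-90891294 on the plus strand, Cxcl2 at chr5:90903649-90903948 on the plus strand, and Il6 at chr5:30012864-30013163 on the plus strand.
Cxcl1: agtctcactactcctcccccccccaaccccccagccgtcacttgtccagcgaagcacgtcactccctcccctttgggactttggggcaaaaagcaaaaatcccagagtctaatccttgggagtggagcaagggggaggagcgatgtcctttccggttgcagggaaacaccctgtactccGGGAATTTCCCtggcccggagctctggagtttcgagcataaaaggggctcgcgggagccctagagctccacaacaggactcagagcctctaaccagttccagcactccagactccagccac
Cxcl2: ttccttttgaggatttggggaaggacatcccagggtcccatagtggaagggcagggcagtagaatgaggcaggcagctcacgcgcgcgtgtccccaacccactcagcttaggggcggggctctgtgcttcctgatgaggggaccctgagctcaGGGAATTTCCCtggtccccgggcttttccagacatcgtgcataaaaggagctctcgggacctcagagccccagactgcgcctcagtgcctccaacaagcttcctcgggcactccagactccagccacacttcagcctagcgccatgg
Il6: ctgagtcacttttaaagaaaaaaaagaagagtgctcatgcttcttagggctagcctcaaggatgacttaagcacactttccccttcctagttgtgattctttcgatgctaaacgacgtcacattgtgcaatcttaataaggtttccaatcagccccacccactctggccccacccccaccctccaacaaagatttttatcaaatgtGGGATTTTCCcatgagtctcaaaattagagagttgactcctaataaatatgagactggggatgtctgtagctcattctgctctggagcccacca
Cxcl1 and Cxcl2 carry the same palindromic stretch, GGGAATTTCCC, which begins 71 bases before the start in Cxcl1 and 97 before it in Cxcl2, and Il6 carries GGGATTTTCC at 44 bases before its start.

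The second set holds 3 small proline-rich genes of 1 cluster, with capitals at matches to TGANTCA, the letters bound by AP-1 factors, on either strand. Sprr2d lies at chr3:92338890-92339189, Sprr2f at chr3:92364937-92365236 and Sprr2h at chr3:92385435-92385734, all on the plus strand.
Sprr2d: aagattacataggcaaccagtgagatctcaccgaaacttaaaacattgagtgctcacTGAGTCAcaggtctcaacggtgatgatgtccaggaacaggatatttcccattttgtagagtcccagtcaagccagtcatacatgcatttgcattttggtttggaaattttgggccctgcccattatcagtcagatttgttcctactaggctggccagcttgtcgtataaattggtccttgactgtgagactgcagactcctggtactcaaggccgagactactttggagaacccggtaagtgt
Sprr2f: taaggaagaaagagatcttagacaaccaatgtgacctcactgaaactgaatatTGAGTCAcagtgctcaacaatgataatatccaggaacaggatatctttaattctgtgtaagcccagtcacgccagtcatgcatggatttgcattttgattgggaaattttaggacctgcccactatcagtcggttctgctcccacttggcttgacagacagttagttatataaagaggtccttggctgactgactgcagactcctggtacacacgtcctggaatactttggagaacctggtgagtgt
Sprr2h: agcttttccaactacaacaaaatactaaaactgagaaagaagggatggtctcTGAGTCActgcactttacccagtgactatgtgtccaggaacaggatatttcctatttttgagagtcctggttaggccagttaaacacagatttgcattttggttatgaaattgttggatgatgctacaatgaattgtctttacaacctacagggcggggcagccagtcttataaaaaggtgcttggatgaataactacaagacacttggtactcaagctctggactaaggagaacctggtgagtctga
The match is the same in each, at 193, 197 and 198 bases before the start.

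The third set holds 2 enterocyte genes that were lower with IL-17A, with capitals at matches to CAAAGTCCA, letters bound by HNF4, or to the consensus of HNF1, on either strand. Alpi lies at chr1:87101557-87101856 and Slc10a2 at chr8:5105238-5105537, both on the minus strand.
Alpi: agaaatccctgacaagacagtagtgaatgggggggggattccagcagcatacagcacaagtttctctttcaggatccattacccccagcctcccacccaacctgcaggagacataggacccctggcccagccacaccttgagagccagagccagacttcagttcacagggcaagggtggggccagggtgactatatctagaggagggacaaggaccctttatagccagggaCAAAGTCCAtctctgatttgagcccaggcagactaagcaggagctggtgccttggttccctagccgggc
Slc10a2: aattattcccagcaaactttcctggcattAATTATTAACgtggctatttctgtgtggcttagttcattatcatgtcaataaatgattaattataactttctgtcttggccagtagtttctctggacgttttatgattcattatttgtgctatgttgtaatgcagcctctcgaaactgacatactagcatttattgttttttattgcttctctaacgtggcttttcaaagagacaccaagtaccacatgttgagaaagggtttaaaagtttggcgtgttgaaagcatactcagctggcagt
The HNF4 letters begin 19 bases before the start of Alpi, and the HNF1 match 221 bases before that of Slc10a2.

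Over all 32851 promoters of this table, the NF-kB consensus was found in 4.51%, TGANTCA in 7.81%, TTGCNNAA (the letters bound by C/EBP factors) in 10.8%, CAAAGTCCA in 0.475% and the HNF1 consensus in 0.399%. Over the 12648 promoters of measured genes the shares were 5.31%, 5.42%, 8.33%, 0.466% and 0.213%, in the same order. In the 41 promoters of the higher genes the NF-kB consensus was found in 6 (14.6%), of Cxcl1, Cxcl2, Il6, Ccl20, Clca3a2 and Steap4. TTGCNNAA was found in 14 (34.1%), among them those of Lcn2, Saa3 and Plet1. TGANTCA was found in 13 (31.7%), which belong to 12 genes. Those of Sprr2d, Sprr2f and Sprr2h and of Clca3a2 and Clca3b are among the 13. Such promoters of related genes in a cluster are not independent. In the 26 promoters of the lower genes the NF-kB consensus was found in 2 (7.69%), those of Alpi and Apob, TTGCNNAA in 5 (19.2%) and TGANTCA in 2 (7.69%). CAAAGTCCA was found in 2 (7.69%), Alpi and Cyp3a11, and the HNF1 consensus in 2 (7.69%), Slc10a2 and Slc26a3. Among the promoters of the higher genes, CAAAGTCCA was found in 0 and the HNF1 consensus in 1 (2.44%), that of Cp. A match is a description of the letters in the window and no evidence of binding.

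The strongest differences were in chemokines that attract neutrophils, the CXC chemokines with a glutamate-leucine-arginine (ELR) motif. All 6 measured members of this list, which also takes in the related Pf4 that lacks the motif, were above 0, against 45.1% of all measured genes, and 3 were at least 2-fold higher. The median log2 ratio of the list was 1.5, against -0.01 for all measured genes. It was 0.93 with the floor at the 25th percentile of signals and 0.64 with the floor at the 75th. Cxcl5 had a signal of 315 untreated and 3878 with IL-17A (12.3-fold), Cxcl1 484 and 4587 (9.48-fold), and Cxcl2 232 and 969 (4.17-fold). The other probe sets of Cxcl1 gave log2 ratios of 2.16 and 2.54, against 3.25 for the brightest. Cxcl3 stood at 163 and 312 (log2 ratio 0.93), Ppbp at 235 and 340 (0.53) and Pf4 at 1272 and 1484 (0.22). These genes lie in a cluster on chromosome 5 that also holds Cxcl15, which was not measured. The size of the difference varied within the cluster from 0.22 to 3.62 on the log2 scale. The genes that flank the cluster, Rassf6 and Mthfd2l, had ratios of 0.19 and 0.10. Among the 6 other CXC and CX3C chemokines measured the median was 0.04, with 3 above 0.

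CC chemokines, which attract monocytes, lymphocytes and eosinophils, had a median log2 ratio of 0.53 over 11 measured genes, with 8 above 0 and 2 past 2-fold. Ccl7, a monocyte attractant, had signals of 189 and 497 (2.63-fold). Ccl20, the ligand of CCR6 on Th17 cells and dendritic cells, had 49.2 and 197 (at least 2.19-fold). On the FGF2 and combined arrays Ccl20 stood at 15.1 and 55.7, both under the floor. Ccl2 lay just under the threshold at 629 and 1216. Ccl6 (410 and 738) and Ccl28 (149 and 269), a mucosal chemokine, both had a log2 ratio of 0.85. On chromosome 11, where Ccl2, Ccl7, Ccl11 and Ccl8 lie in a cluster with the unmeasured Ccl12, the ratios were 0.95, 1.39, 0.31 and -0.32. The median of the CC list depended on the dim members: it was 0.031 with the floor at the 25th percentile of signals and 0.31 with the floor at the 75th.

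Other secreted cytokines differed gene by gene. Il6 had a signal of 146 untreated and 937 with IL-17A (6.41-fold), while the 9 measured members of its family had a median of -0.05, with 4 above 0. Il11, a cytokine of stromal and epithelial repair, stood at 1404 and 3016 (2.15-fold) and Lif at 445 and 806 (log2 ratio 0.86). In the list of colony-stimulating factors, TNF and the IL-1 family, 9 of 10 measured members were above 0 with a median of 0.38, and 3 were at least 2-fold higher. Csf3, the neutrophil growth factor G-CSF, had signals of 98.1 and 214 (2.18-fold). Tnf had 42.7 and 209 (at least 2.33-fold) and Il1f6, which encodes IL-36 alpha, 38.2 and 211 (at least 2.35-fold). These 3 were dim on the untreated array, at or near the floor. The brighter Il1rn, the IL-1 receptor antagonist, stood at 2580 and 3826 (log2 ratio 0.57), and Il33 at 1281 and 1656 (0.37). The decoy receptor gene Il13ra2, named after its values were seen, had 157 and 344 (2.19-fold).

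**Figure D2:**
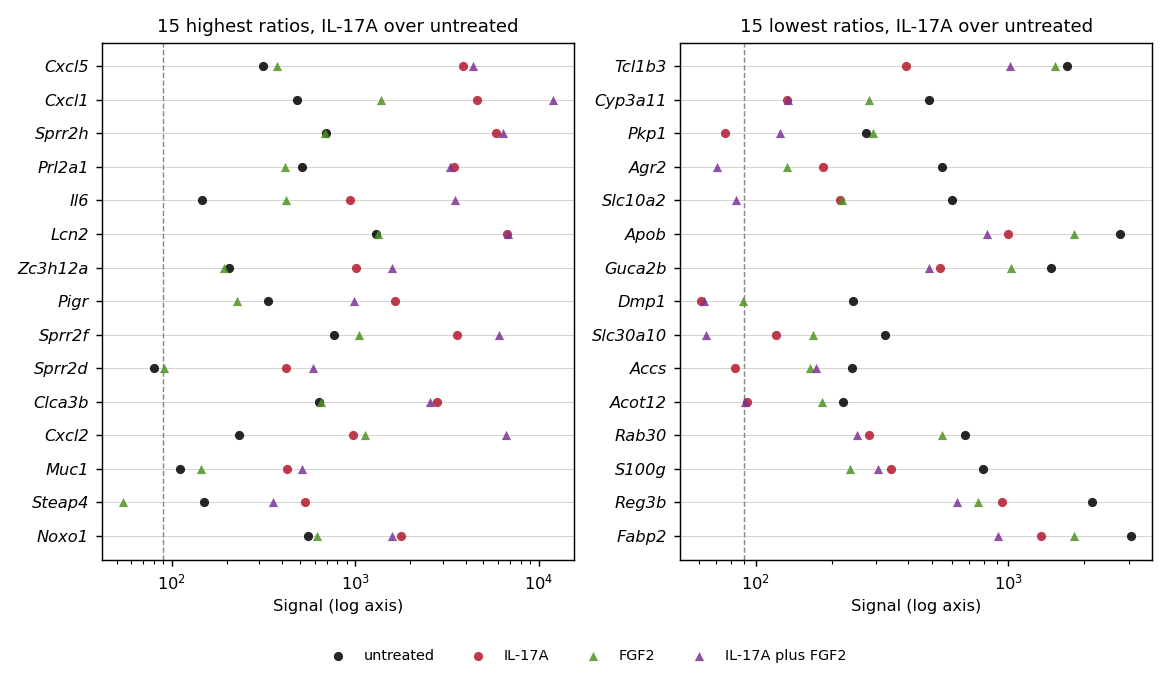
Signals on all 4 arrays (log axis, floor as dashed line) of the 15 genes with the highest and the 15 with the lowest ratio of IL-17A over untreated whose other probe sets went the same way. For Cxcl5, Sprr2h and Lcn2 the untreated and FGF2 signals lie together and so do the IL-17A and combined signals; for S100g the untreated signal of 793 stands alone above the other 3, which lie between 236 and 345.

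Inside the cell, the lists of receptor signalling and of feedback both had medians near that of all measured genes, and single members stood out. Over 18 measured genes of IL-17 receptor signalling the median was 0.05, and 10 stood above 0. Il17ra had signals of 394 and 385, Il17rc 419 and 335, and the adaptor gene Traf3ip2 651 and 855 (log2 ratio 0.39). Among 21 measured NF-kB subunits, inhibitors and feedback genes the median was 0.06, with 12 above 0, 6 of them by more than double the SD of the error guide. The largest ratio of this list belonged to Nfkbiz, with 1901 and 5447 (2.87-fold). Its other probe sets disagreed, at 1.63 and -0.35 on the log2 scale. Below it came Tnfaip3, which encodes the deubiquitinase A20, at 1449 and 2532 (log2 ratio 0.80), Ier3 at 5521 and 8953 (0.70), Bcl3 at 730 and 978 (0.42), Birc3 at 2468 and 2968 (0.27) and Nfkbia at 8313 and 9519 (0.20).

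The C/EBP genes Cebpd and Cebpb stood at 4951 and 6985 (log2 ratio 0.50) and at 8907 and 10857 (0.29), and Cebpa, which marks differentiated cells, at 280 and 201 (-0.48). Zc3h12a, which encodes the endoribonuclease Regnase-1 that degrades cytokine mRNAs, had signals of 204 and 1013 (4.96-fold). It stood alone in its list of mRNA decay and stability genes, whose 14 measured members had a median of 0.02. Arid5a, which protects Il6 mRNA, was next in that list at 294 and 441 (0.58). Socs3, the feedback inhibitor of IL-6 family signalling, had 2060 and 2760 (0.42), in a list of 19 SOCS and STAT genes with a median of 0.00.

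Antimicrobial proteins were mixed. Of 17 measured members 11 were above 0 and 5 below, with a median of 0.08, 5 past double the SD of the guide in the higher direction and 3 in the lower. Lcn2, which binds bacterial siderophores, had signals of 1300 and 6751 (5.19-fold). Camp stood at 160 and 299 (log2 ratio 0.90), S100a8 at 419 and 717 (0.78), Pglyrp1 at 1673 and 2784 (0.73) and Slpi at 4084 and 5079 (0.31). Camp and S100a8 are also neutrophil markers. Of 12 neutrophil markers on the array, 7 stayed under the floor on all arrays, Mpo, Elane, Csf3r and Cxcr2 among them, and the summed signal of the list was 1216 and 1636. In the other direction, the C-type lectin gene Reg3b had 2151 and 945 (2.28-fold lower; its other probe set gave -0.65), and the lysozyme genes Lyz1 and Lyz2 had log2 ratios of -0.31 and -0.36. Neighbours of the same family on chromosome 6 went their own way. Reg2 was at 90.8, just over the floor, and 271 (2.99-fold higher). On the FGF2 and combined arrays Reg2 stood at 70.9 and 63.2, both under the floor. Reg1 was at 77.2 and 129 (at least 1.43-fold higher) and Reg3g at 185 and 213.

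Acute phase and metal-handling genes had a median of 0.29, where 11 of 14 measured genes had a ratio above 0 and 3 passed 2-fold. Steap4, a metalloreductase, had signals of 151 and 535 (3.55-fold), the serum amyloid gene Saa3 1249 and 3397 (2.72-fold), and Cp, the copper-carrying ferroxidase ceruloplasmin, 983 and 2557 (2.6-fold). All 7 other probe sets of Cp over the floor were above 0, but their log2 ratios ran from 0.0029 to 1.44. Serpina3n stood at 447 and 723 (log2 ratio 0.69), and the metallothionein genes Mt1 and Mt2 at 0.36 and 0.29. Saa1 and Saa2, which lie near Saa3 on chromosome 7 beyond the unmeasured Saa4, had ratios of -0.01 and -0.24. Complement components and regulators had a median of 0.00 over 13 measured members.

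Genes of the epithelial barrier formed the next group. In the list of IgA transport and epithelial oxidases, 5 of 6 measured genes stood above 0 and 3 passed 2-fold, with a median of 0.59. That median was 0.077 with the lower floor, 0.93 with the higher floor and 1.01 without probe sets open to related transcripts. Pigr, which carries IgA across the epithelium, had signals of 337 and 1647 (4.89-fold), and its other probe set gave a log2 ratio of 2.84. Noxo1, the organiser of the NADPH oxidase NOX1, stood at 552 and 1784 (3.23-fold), and Duoxa2, the maturation factor of the oxidase DUOX2, at 90.7 and 183 (2.01-fold). The oxidase subunit gene Cyba had 3217 and 3619.

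Of 7 measured mucins 4 were above 0 and 3 below, each by more than double the SD of the guide. The membrane mucin gene Muc1 was at 111 and 425 (3.82-fold higher), and Muc20, Muc4 and Muc13 had log2 ratios of 0.69, 0.27 and 0.22. The gel-forming Muc2 had -0.45, Muc16 -0.59 and Muc3 -0.36. The small proline-rich genes of the Sprr2 cluster on chromosome 3, better known from the cornified envelope of skin, were among the largest differences. Sprr2h had 695 and 5874 (8.45-fold), Sprr2f 768 and 3590 (4.68-fold) and Sprr2d 79.6 and 417 (at least 4.64-fold), while Sprr2k in the same cluster had 655 and 791 and Sprr1a 7148 and 6387. The Sprr2 genes are close copies of each other and the Sprr2h probe set is marked as open to related transcripts, so the array may not separate them. The median of the 9 measured members of the list was 0.27, and it was -0.019 without probe sets of that kind.

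The Clca genes, whose secreted proteins regulate calcium-activated chloride channels, lie in another cluster on chromosome 3. Clca3b had 637 and 2784 (4.37-fold), Clca3a2 161 and 515 (3.19-fold) and Clca3a1 621 and 1161 (log2 ratio 0.90). The other probe set of Clca3a2 gave a log2 ratio of 0.25. Further along the cluster Clca4b had 0.36, Clca1 0.24, Clca2 0.00 and Clca4a -0.35. Prl2a1, a member of the prolactin family known from placenta, stood at 512 and 3451 (6.74-fold). Plet1, an epithelial surface protein, stood at 2413 and 6783 (2.81-fold). Its other probe sets gave log2 ratios of 0.11 and 1.69. Plet1 was named after its values were seen. Slc39a4, the zinc importer ZIP4, had 938 and 2107 (2.25-fold), and Cemip, a hyaluronan-degrading protein, 268 and 598 (2.23-fold). Ifitm1, of the interferon-induced transmembrane family, had 1882 and 3791 (2.01-fold).

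Among the lists, enterocyte markers had the lowest median, -0.81. Of 16 measured markers 15 were below 0, against 52.8% of all measured genes, 11 by more than double the SD of the guide, and 3 were at least 2-fold lower. The summed signal of the 19 enterocyte markers on the array was 26992 untreated and 14807 with IL-17A, while that of the general epithelial markers was nearly equal, as given above. Gene by gene, the general epithelial markers had a median log2 ratio of -0.04, with 14 of 24 below 0. Fabp1, Lct and Treh of the enterocyte list were under the floor on all arrays. Of the 16 measured markers 15 also stand in the absorptive lists that follow, so these lists are not separate evidence. Whether enterocytes were fewer or held less of these mRNAs cannot be told apart.

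Bile acid handling had a median log2 ratio of -0.51 over 9 measured members, 8 of them below 0. Slc10a2, the sodium-dependent bile acid importer of the ileal brush border, had signals of 599 and 215 (2.78-fold lower). Both chains of the basolateral bile acid exporter were lower, Slc51a at 560 and 269 (2.08-fold) and Slc51b at 514 and 276 (log2 ratio -0.90). Nr1h4, the bile acid receptor FXR, stood at 800 and 563 (-0.51) and its target Fgf15, an enterokine, at 484 and 285 (-0.77). The exception in the list was the vitamin D receptor gene Vdr, at 154 and 200.

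Lipid absorption genes and apolipoproteins had a median of -0.31, with 21 of 25 measured members below 0 and 12 of them by more than double the SD of the guide. Apob, the structural protein of chylomicrons, had 2765 and 998 (2.77-fold lower), although its other probe set gave a log2 ratio of -0.28. Fabp2, which binds fatty acids inside the enterocyte, had 3058 and 1347 (2.27-fold lower). Mttp, which loads lipid on to apolipoprotein B, stood at 490 and 279 (log2 ratio -0.81) and Tm6sf2 at 303 and 158 (-0.93). The apolipoprotein genes Apoa1, Apoc3 and Apoa4 are neighbours on chromosome 9 and were lower by similar amounts: Apoa1 stood at 12845 and 6771 (-0.92), Apoc3 at 1289 and 664 (-0.96) and Apoa4 at 3857 and 2097 (-0.88). The nearest measured genes on either side of them, Sik3 and Zpr1, had ratios of -0.09 and -0.12. Apoa5, which lies between Apoa4 and Zpr1, was not measured. Of the 4 members above 0 in this list, the highest were Apobec1, the editor of Apob mRNA, at 0.32 and the cholesterol exporter gene Abca1 at 0.30.

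Brush border hydrolases and structural genes had a median of -0.24, with 18 of 19 measured members below 0 and 7 of them past double the SD. Alpi, intestinal alkaline phosphatase, had 1371 and 645 (2.12-fold lower), and Mgam, the maltase-glucoamylase, 675 and 330 (2.04-fold lower). Tmigd1 stood at 5087 and 2946 (log2 ratio -0.79), the motor protein gene Myo1a had -0.53, the microvillar cadherin gene Cdhr5 -0.45 and the actin bundler gene Vil1 -0.24. Among 24 nutrient and metal transporters the manganese exporter gene Slc30a10 was lowest, at 326 and 121 (2.71-fold lower; its other probe set gave -1.07). The peptide transporter gene Slc15a1 had a log2 ratio of -0.82, the glucose transporter gene Slc5a1 -0.66 and the amino acid transporter gene Slc6a19 -0.54. With Slc39a4 at the other end the list's median was -0.02.

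Fluid and ion transport had a median of -0.13 over 26 measured members, with 18 below 0 and 8 past double the SD of the guide. Guca2b, which encodes the hormone uroguanylin, had 1479 and 538 (2.75-fold lower), and its neighbour on chromosome 4, the guanylin gene Guca2a, 3134 and 1834 (log2 ratio -0.77). Gucy2c, the receptor of both, stood at 220 and 155 (-0.51). Slc26a3, the chloride-bicarbonate exchanger, had 740 and 349 (2.12-fold lower), the sodium-proton exchanger gene Slc9a3 616 and 358 (-0.78) and carbonic anhydrase gene Car1 1963 and 1124 (-0.80). S100g, the calcium-binding protein calbindin-D9k, had 793 and 345 (2.30-fold lower). Scnn1b, a subunit of the epithelial sodium channel, was on the other side, at 110 and 227 (2.06-fold higher), and the subunit gene Scnn1g was at 244 and 160.

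Xenobiotic metabolism had a median of -0.18, with 18 of 21 measured members below 0. Cyp3a11, a major drug-metabolising P450, had 485 and 133 (3.65-fold lower), the sulfotransferase gene Sult1d1 1769 and 1019 (log2 ratio -0.80), Ugt2b34 518 and 307 (-0.76) and Cyp3a13 7341 and 5154 (-0.51). Of 13 measured prostaglandin genes 10 were above 0, and the median was 0.19. Hpgd, the enzyme that inactivates prostaglandins, had 2224 and 1028 (2.16-fold lower; its other probe set gave -1.02). The synthase Ptgs2 stood at 7450 and 10514 (0.50; its other probe set gave 0.66). Ptges stood at 503 and 774 (0.62), but both of its other probe sets gave 0.08. Of the receptors, Ptgir had 0.35, Ptger2 0.31 and Ptger4 -0.14.

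Secretory cell genes did not move as a block. Goblet cell markers had a median of -0.04, with 8 of 17 measured members above 0. Agr2, a protein disulfide isomerase needed for mucin folding, had 548 and 185 (2.97-fold lower; its other probe set gave -1.10), and Zg16 had a log2 ratio of -0.41, while Creb3l1 stood at 387 and 605 (0.64). Paneth cell markers had a median of -0.17 over 8, and enteroendocrine markers 0.00 over 21. Of the 15 lowest genes, 6 were in no list. Tcl1b3, of a family known from early embryos, stood at 1701 and 395 (4.31-fold lower). Its probe set is marked as open to related transcripts. Pkp1, a desmosomal plakophilin, stood at 274 and 76.0 (at least 3.05-fold lower). Dmp1, a protein of bone and tooth matrix, stood at 244 and 61.0 (at least 2.72-fold lower) and Accs at 242 and 83.3 (at least 2.69-fold lower). Rab30, a small GTPase, stood at 677 and 281 (2.41-fold lower; its other probe set gave -0.17) and Acot12, an acyl-CoA thioesterase, at 223 and 92.2 (2.41-fold lower). On the FGF2 and combined arrays, Dmp1 stood at 89.4 and 62.7, both under the floor, and Accs at 165 and 174.

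Among 30 transcription factors of epithelial fate 20 were below 0, against 52.8% of all measured genes, and the median was -0.13. By the error guide 2 were higher and 1 lower past double the SD. The second reading did not repeat this lean: for IL-17A plus FGF2 against FGF2 the median was 0.022, with 16 above 0 and 12 below. Ehf, an epithelial ETS factor, had signals of 359 and 639 (log2 ratio 0.83), and Atoh1, the factor of secretory fate, 282 and 394 (0.48). Hnf4a, a factor of enterocyte genes, stood at 2461 and 1947 (-0.34), Cdx2 at 1093 and 860 (-0.35) and Pparg at 477 and 362 (-0.40). None of the last 3 reached 1.5-fold.

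**Figure D3:**
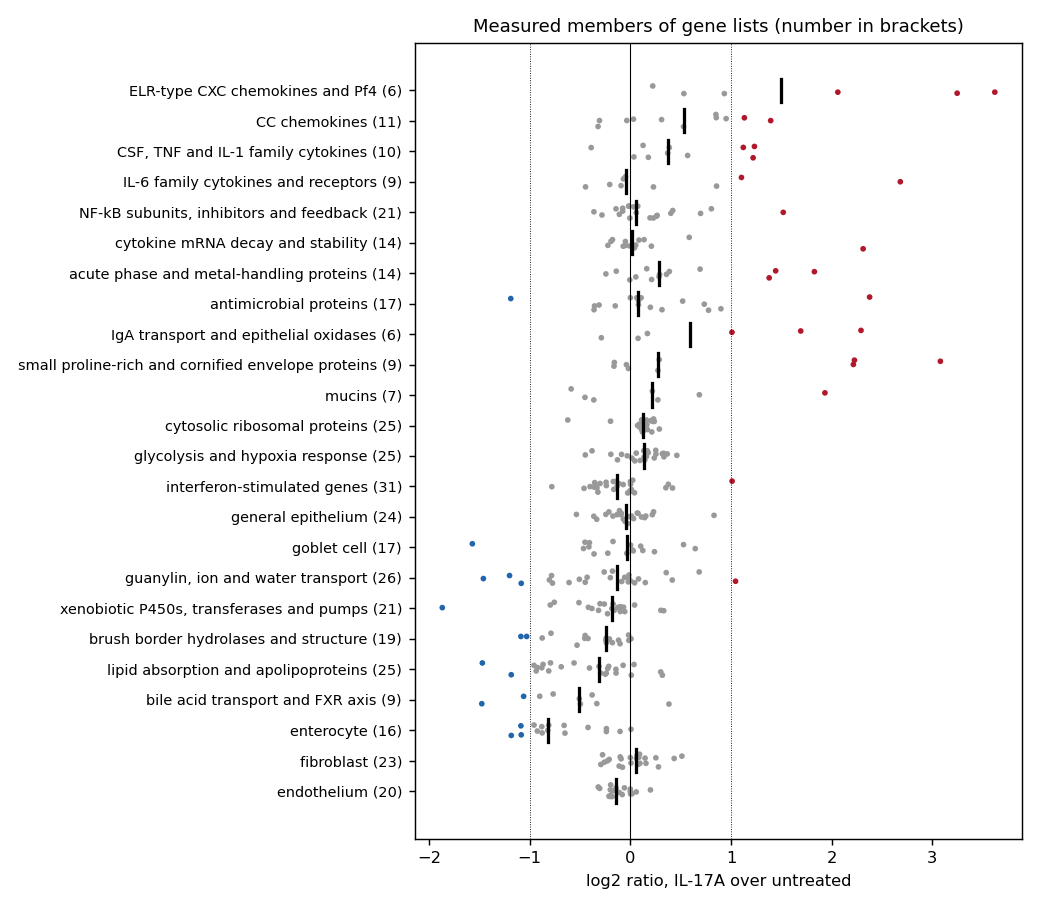
Log2 ratio of IL-17A over untreated for the measured members of 24 gene lists (1 point a gene, vertical jitter only; number of measured members in brackets; black bar, list median; dotted lines, 2-fold). The medians run from 1.5 for the ELR-type chemokines and Pf4 to -0.81 for enterocyte markers, and most lists with a gene past 2-fold also hold many near 0.

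Housekeeping processes and some other lists showed small shifts. Of 25 cytosolic ribosomal proteins 23 were above 0, with a median of 0.13, which became 0.0099 under quantile normalization. Glycolysis and hypoxia genes had a median of 0.14 with 19 of 25 above 0 (0.073 under quantile normalization), led by Hk2 at 2970 and 4091. Oxidative phosphorylation had 0.06 with 21 of 27 above 0 (0.0053 under quantile normalization). Fatty acid oxidation had -0.11 with 16 of 19 below 0, interferon-stimulated genes -0.13 with 22 of 31 below 0, and mucosal glycosyltransferases -0.17 with 17 of 22 below 0. G1/S genes (0.03), G2/M genes (-0.05) and the unfolded protein response (0.05) lay near the median of all measured genes. Fibroblast markers had a median of 0.06 with 13 of 23 above 0 and no member at 2-fold, and endothelial markers -0.14 with 15 of 20 below 0; the role of these shifts in the other results was not tested.

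Neighbours on the chromosome were looked at for every gene at least 2-fold different that could be placed in the gene table. Of the 88 nearest genes to the 44 placed higher genes, 54 were measured. Their median log2 ratio was 0.10 and 38 were above 0, against 45.1% of all measured genes. Among these 54 are genes that were themselves at least 2-fold higher. Only 6 higher genes had a neighbour that was also at least 2-fold higher, and they form 3 pairs: Cxcl1 with Cxcl2, Sprr2f with Sprr2h, and Clca3a2 with Clca3b. The 33 measured neighbours of 27 lower genes had a median of 0.03, with 17 above 0, and 0 of them were at least 2-fold lower.

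The IL-17A difference was read again on the arrays that received FGF2, as the combined array against the FGF2 array. This pair shares no array with the comparison above, but both of its arrays held FGF2, so a difference between readings may be error or an effect of FGF2. In this pair 0.367% of measured genes passed 2-fold in the higher direction and 0.269% in the lower, while 49% lay above 0 and 47.1% below. Of the 46 genes higher with IL-17A alone, 25 (54.3%) were at least 2-fold higher here too and 13 went the same way by less. A further 3, Reg2 and Ccl20 among them, were at the floor on both arrays, and 5 went the other way. Of the 28 lower genes, 12 (42.9%) were at least 2-fold lower here too, 11 went the same way by less, 1 was at the floor and 4 went the other way. The genes that passed in both pairs were brighter: the median of the brighter signal was 1647 for the 25 higher genes and 227 for the 5 that turned, and 1024 for the 12 lower genes and 223 for the 4 that turned.

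Most of the large ratios were close in both readings. Cxcl5 had log2 ratios of 3.62 without and 3.55 with FGF2, Sprr2h 3.08 and 3.23, Lcn2 2.38 and 2.35, Pigr 2.29 and 2.12 and Nfkbiz 1.52 and 1.63. For Cxcl1, Il6 and Cxcl2 the ratios were 3.25 and 3.11, 2.68 and 3.06, and 2.06 and 2.56. Their starting signals differed: the FGF2 array stood at 1387, 417 and 1130, against 484, 146 and 232 on the untreated array. Saa3 had a larger ratio with FGF2 (1.44 and 2.33), from a lower start of 323, and so had Zc3h12a (2.31 and 3.06). Ccl2, just under 2-fold with IL-17A alone (0.95), had 1.58. Il11 went from 1404 to 3016 without FGF2 and from 13544 to 15870 with it (1.10 and 0.23).

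On the lower side Slc10a2 had -1.48 and -1.30, Guca2b -1.46 and -1.07, Apob -1.47 and -1.15, Fabp2 -1.18 and -1.01, Alpi -1.09 and -1.13 and Hpgd -1.11 and -1.09. The enterocyte list had a median of -0.81 without and -0.62 with FGF2, and 14 of its 16 measured members were below 0 in the second pair. Larger gaps were seen for Tcl1b3 (-2.11 and -0.59), Agr2 (-1.57 and -0.57) and Reg3b (-1.19 and -0.28). For Agr2 and Reg3b the FGF2 array was already low, at 133 and 756. Among the lists, the second medians were 1.92 for the ELR-type chemokines and Pf4, 0.46 for CC chemokines, 0.35 for acute phase genes, -0.58 for bile acid genes, -0.37 for lipid absorption and -0.36 for the brush border, all on the same side of 0 as without FGF2. Other list medians stood on opposite sides of 0, among them those of endothelial markers (-0.14 and 0.11) and pattern recognition genes (-0.12 and 0.092). So did those of epithelial fate factors (-0.13 and 0.022) and the IL-6 family (-0.05 and 0.25), and those of further lists with medians near 0.

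**Figure D4:**
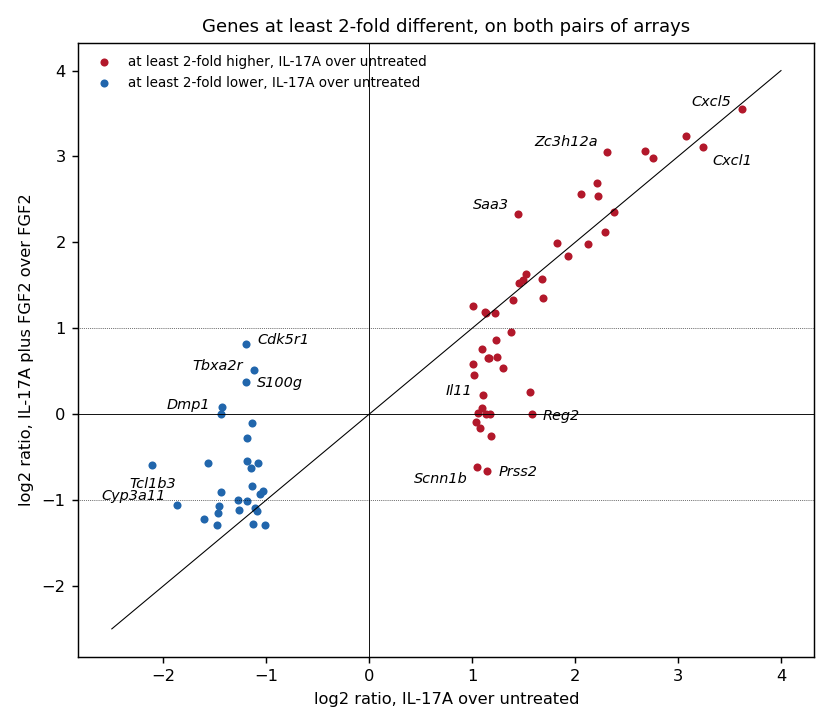
Log2 ratio of IL-17A over untreated (x axis) and of IL-17A plus FGF2 over FGF2 (y axis) for the 46 genes at least 2-fold higher (red) and the 28 at least 2-fold lower (blue) in the first; the solid diagonal marks equal ratios and the dotted lines 2-fold. The highest genes lie near the diagonal up to Cxcl5 at 3.62 and 3.55, while Scnn1b and Prss2 lie below 0 and Cdk5r1, Tbxa2r and S100g above 0 on the y axis.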

How the data were processed

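RNA of 4 samples was measured on 1 Affymetrix array each; the comparison uses 2 of them. The authors used MAS5 per the submitters' processing notes (version not given) and deposited log2 signals. MAS5 subtracts mismatch signal, so dim values are noisy.

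Of 45101 probe sets, 64 controls were left out. By the platform annotation 34945 probe sets had a single symbol, 932 had more and 9160 had none; of the single symbols, 34741 matched the GRCm38.p6 gene table by Entrez identifier and 0 changed. Each gene took its brightest probe set, and signals under the median of all signals (log2 6.49) were raised to it. The log2 ratio is IL-17A minus untreated. With 1 array a group no test was run, and the number of arrays limits the precision.

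Gene lists numbered 71 (55 of processes, 16 of cell type markers), with 1586 distinct genes, of which 182 had no match on the array and 1163 were measured. The members and lists were chosen with earlier results of these data known. Named genes are 15 genes at each end of the 2-fold set, kept only if their other probe sets agreed in direction, list members, and neighbours in family clusters; clone symbols are counted and not named. Other genes are named only for their place at the threshold or for an opposite sign in the second pair of arrays, or where the text says so, and were chosen after their values were seen.

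Alternatives were 2 other scalings, 3 other floors, the mean of all probe sets, exclusion of probe sets that can pick up related transcripts, and thresholds of 1.5- and 3-fold. Python 3.11.15, numpy 2.4.6, pandas 2.3.3 and matplotlib 3.10.9 were used, and the calculations were tested on simulated data.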

Additional observations from a re-analysis of the deposited data

Results flagged for a closer look

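Opposite signs in both pairs of arrays drew attention to 9 of the 74 genes, and none of these differences was tested. Among genes at least 2-fold higher with IL-17A alone, the log2 ratio of IL-17A plus FGF2 over FGF2 was -0.25 for Tm7sf3, -0.66 for Prss2, -0.16 for Slc6a17, -0.61 for Scnn1b and -0.097 for Sptssb. Among those at least 2-fold lower it was 0.51 for Tbxa2r, 0.81 for Cdk5r1, 0.37 for S100g and 0.079 for Accs. Tm7sf3 and Cdk5r1 also had other probe sets that went the other way within the first pair. Prss2, a trypsinogen, and Scnn1b ended under 230 on the IL-17A array, and Tbxa2r, the thromboxane receptor, stood at 195 untreated and at 16.6 with IL-17A.

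Probe sets without a single gene symbol entered no gene result. Of 932 probe sets with several symbols, 587 were measured and 2 were at least 2-fold higher on the IL-17A array. Of 9160 with no symbol, 2488 were measured, 2 passed 2-fold in the higher direction and 11 in the lower, and 1 of the 11 was also at least 2-fold lower in the second pair.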

How the results depend on the processing

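No paired analysis was possible because each group has 1 array and the labels carry no replicate numbers. With 1 array a side the data give no replicate error, and signals near the floor limit what can be read. The 46 higher and 28 lower genes became 176 and 239 at a 1.5-fold threshold and 16 and 3 at 3-fold. A floor at the 25th percentile gave 216 and 250, one at the 75th gave 20 and 8, and adding the floor to every signal gave 30 and 17. The share of higher genes among those called was 62.2%, against 46.4% with the lower floor and 71.4% with the higher one. Quantile normalization gave 46 and 30, equal medians 46 and 26, the mean of all probe sets 34 and 20, and leaving out probe sets that can pick up related transcripts 38 and 25. The median of the ELR-type chemokines and Pf4 was 0.93, 0.64 and 1.19 under the lower floor, the higher floor and the added floor. That of CC chemokines was 0.031 and 0.31 under the lower and higher floor and 0.28 with the mean of probe sets. Bile acid genes had -0.27 with the higher floor. Enterocyte markers had -0.52 with the added floor and -0.60 with the mean of probe sets. The median of the small proline-rich list was -0.019 without probe sets open to related transcripts. The 74 genes at least 2-fold different include 4 clone symbols; the other 70 kept their direction wherever they had a value, and 14 were at least 2-fold different under all 7 alternatives of scaling, floor and probe set. Of 113 genes named in the text with less than 2-fold, 106 kept their sign and 7 turned (Actb, Epcam, Il17ra, Krt8, Mthfd2l, Saa1 and Zpr1), all with a log2 ratio under 0.2 in size. Of 71 list medians 59 moved by less than the overall SD of the error guide under all 7, and 12 moved by more under at least 1. Without probe sets open to related transcripts 9 genes had no value, Lcn2, Noxo1, Saa3, Sprr2h and Tcl1b3 among them.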

Other observations

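Further groups were measured and not described above. In the list of plasminogen, matrix and wound proteins 7 of 22 measured members were higher by more than double the SD of the error guide and 1 was lower. Among all measured genes the shares were 3.55% higher and 4.36% lower. Plat, tissue plasminogen activator, had signals of 10163 untreated and 15050 with IL-17A, and its log2 ratio was 0.57 without and 0.60 with FGF2. Plaur, the urokinase receptor, stood at 4235 and 5573 (0.40 and 0.20), and Plau, urokinase itself, at 111 and 215 (0.95 and -0.42). The matrix genes Mmp3 (2373 and 3529), Mmp7 (265 and 398) and Timp1 (3902 and 5857), which encode 2 proteinases and an inhibitor, each lay above 0 in both readings.

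Of 20 measured tight junction genes 13 were below 0, against 52.8% of all measured genes. Cldn2, which forms a channel for cations and water, was lowest at 409 and 223, with log2 ratios of -0.87 without and -0.58 with FGF2, while the sealing claudin genes Cldn4 and Cldn7 stood at 0.16 and 0.15 without FGF2. Among 20 pattern recognition genes the median was -0.12 without FGF2 and 0.092 with it, where 12 were above 0. Casp4, a sensor of bacterial lipopolysaccharide, stood at 839 and 1369 (0.71 and 1.09) and Casp1 at 376 and 279 (-0.43 and -0.61). The iron importer gene Slc11a2 had 356 and 585 (0.72 and 0.63), and the ferroxidase gene Heph 1751 and 1241 (-0.50 and -0.35).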
